A study of Mus musculus with 8 samples.

Results

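Selenoproteins are the proteins that carry selenocysteine, the selenium analogue of cysteine, usually at the reactive site of an enzyme. Selenocysteine is encoded by UGA, which otherwise ends translation. An RNA hairpin in the 3′ part of the transcript, the SECIS element, is bound by SECIS-binding protein and recruits the dedicated elongation factor and tRNA that read UGA as selenocysteine. When UGA is read as a stop instead, the transcript can be a substrate of nonsense-mediated decay. In fibroblast-like cells the family is known for the removal of peroxides, for the recycling of thioredoxin and for protein quality control in the endoplasmic reticulum.

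The 10 selenoprotein genes described here are Selenow, Selenop, Gpx1, Gpx3, Gpx4, Txnrd1, Selenok, Selenom, Selenos and Selenot, out of 27573 genes represented on the array. They were taken by name as a family, and the family was chosen by a measured value: Selenow had a low signal in heavy polysome RNA against total RNA on these same arrays. The array carries 13 probes for them. Of these, 9 are listed under the older or current member names, and 4 were found through RefSeq records, because the array design lists Selenos as H47 and Selenot as 2810407C02Rik. A probe of Selenom (chr11:3415209-3415268, mm8) and a probe of Selenot (chr3:58665233-58665292, mm8) were too dim to be tested. The brightest probe stood for each gene, and all 10 were well above background in both channels on all 8 arrays, so that every member was among the 14474 genes tested.

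The cells were lymph node stromal cells in culture, the non-haematopoietic scaffold cells of the lymph node, from BALB/c mice. The groups were cells given siRNA against Eif4g3 (whose product is a scaffold in eIF4F, the cap-binding initiation complex) and cells given a control siRNA, each at 400 pmol by lipofection and harvested at 48 h. From each, heavy polysome RNA (pooled sucrose gradient fractions of transcripts that carry many ribosomes) and total RNA of the lysate were labelled, and the Eif4g3 siRNA RNA (Cy5) was hybridised with control siRNA RNA of the matching fraction (Cy3) on 4 arrays of heavy polysome RNA and 4 arrays of total RNA. The labels give 7 plates per siRNA and pooling of cells before the gradient, and do not say whether replicates were separate cultures, so p-values may measure technical spread. No array had swapped dyes, so within a fraction an siRNA effect and dye bias cannot be told apart.

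The knockdown was visible on every array: the log2 ratio of Eif4g3 siRNA over control siRNA for Eif4g3 ran from -3.16 to -1.999 in heavy polysome RNA (mean -2.46 ± 0.50, SD, n = 4, limma adjusted p = 6.07e-04) and from -2.48 to -1.81 in total RNA (-2.07 ± 0.29, SD, n = 4, limma adjusted p = 0.00197). All 10 stromal markers were well above background in every channel. None of the lymphocyte, endothelial or epithelial markers was so in every channel. Some were in part of them: 3 of 8 lymphocyte, 1 of 6 endothelial and 4 of 6 epithelial markers were bright enough to be tested. The epithelial marker Krt18 was well above background on 8 arrays in the Eif4g3 siRNA channel and on 7 in the control channel. Of 8 macrophage markers, 5 were well above background in every channel (Cd68, Csf1r, Lyz2, Trem2 and Cd14), while Ptprc, Adgre1 and Itgam were so in none. The share of probes well above background ran from 43.1% to 53.5% in Eif4g3 siRNA channels and from 37.6% to 57.5% in control siRNA channels, and was lowest in the control channel of heavy polysome array 1. The same array had the lowest mean correlation, across genes, with the rest of its fraction (r = 0.289), followed by heavy polysome array 3 (0.318) and by total RNA array 4 (0.327).

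Selenow had the largest gap between fractions of the 10 genes: its transcript was 6.15-fold lower in heavy polysome RNA than in total RNA of Eif4g3 siRNA cells and 5.45-fold lower in control siRNA cells. Selenow encodes a small thioredoxin-fold protein of the cytosol. Its probe lies at chr7:15075726-15075785 (mm8). The normalised log2 signal of Selenow in Eif4g3 siRNA cells was 10.15, 9.99, 9.59 and 10.41 on heavy polysome arrays 1 to 4, against 11.58, 13.46, 12.35 and 13.23 on total RNA arrays 1 to 4. It was, in control siRNA cells, 11.10, 9.91, 9.25 and 10.20 in heavy polysome RNA, against 11.53, 13.30, 12.22 and 13.18 in total RNA. In both kinds of cells every heavy polysome array lay below every total RNA array, and in control siRNA cells heavy polysome array 1 came closest to the total RNA arrays. The difference of means was -2.62 in Eif4g3 siRNA cells and -2.45 in control siRNA cells, and 8 of the 14474 tested genes had a lower difference in each. These are the values that drew attention to the family, so they are a description with no test. Because equal masses of RNA were labelled (200 ng), a value shows a transcript only as a share of its sample, and in bulk RNA fewer cells of a type and less RNA per cell cannot be told apart.

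The start regions of members with low and with high values, each with a single annotated start, are shown because eIF4F assembles at the capped 5′ end of the transcript, where some mRNAs under strong translational control begin with a terminal pyrimidine tract. Each line gives 15 bases before the RefSeq start in lower case and the first 15 transcribed bases in capitals (GRCm38.p6, 5′ to 3′ along the transcript). Selenow (chr7:15922357-15922386, minus strand), Gpx1 (chr9:108339065-108339094, plus strand) and Gpx3 (chr11:54902839-54902868, plus strand) were lower in heavy polysome RNA. Gpx4, also lower, has 4 annotated starts and is not shown. Selenos (chr7:66079634-66079663, plus strand) and Selenok (chr14:29968365-29968394, plus strand) had the highest values in control siRNA cells.
Selenow: gactcgtgaggcagtCGGCTGTGCGCACGG
Gpx1: gtgctacaggagctaGACCAGACCCGCCCT
Gpx3: cgttgccattggctaGGAAGCCCCCGCCTG
Selenok: gtctcccagcagccaATGGGCTCGACCCAC
Selenos: cgtgtacatagggccGAACCGGAAGCGCAG
A start with C followed by 4 bases that are each C or T, read on the transcribed strand from the first base only, was found at 0 of the 17 annotated starts of the 10 genes and at 823 of the 32851 starts in the RefSeq table (2.51%). No match says only that these letters are not at these annotated starts.

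The 3 glutathione peroxidases were lower in heavy polysome RNA than in total RNA as well. Gpx1, the cytosolic enzyme that reduces hydrogen peroxide (probe at chr9:108198037-108198096, mm8), had log2 signals of 14.11, 13.79, 13.04 and 14.09 in heavy polysome RNA of Eif4g3 siRNA cells, against 14.63, 14.82, 14.66 and 14.89 in total RNA. Gpx1 signals of control siRNA cells were 13.27, 13.36, 13.23 and 13.77 in heavy polysome RNA, against 14.75, 14.69, 14.40 and 14.89 in total RNA. The fractions did not overlap in either kind of cells, and the differences of means were -0.996 in Eif4g3 siRNA cells and -1.27 in control siRNA cells. Gpx4, which reduces lipid peroxides in membranes (probe at chr10:79459075-79459226, mm8), had 14.48, 14.18, 13.84 and 14.30 in heavy polysome RNA of Eif4g3 siRNA cells, against 14.25, 15.11, 15.12 and 15.34 in total RNA. Its control siRNA signals were 14.17, 13.70, 13.96 and 13.97 in heavy polysome RNA, against 14.48, 15.15, 15.27 and 15.40 in total RNA. Gpx4 therefore overlapped between fractions in Eif4g3 siRNA cells (difference -0.76), where total RNA array 1 lay among the heavy polysome arrays, and not in control siRNA cells (difference -1.12). Gpx3, the secreted plasma enzyme (probe at chr11:54753357-54753416, mm8), differed by -0.24 in Eif4g3 siRNA cells and by -1.03 in control siRNA cells. Its log2 signals were 12.27, 11.58, 10.03 and 11.66 in heavy polysome RNA of Eif4g3 siRNA cells, against 11.18, 12.78, 11.82 and 10.73 in total RNA. In control siRNA cells they were 10.70, 11.04, 10.43 and 11.21 in heavy polysome RNA, against 11.51, 13.11, 11.61 and 11.27 in total RNA. The Gpx3 fractions overlapped in Eif4g3 siRNA cells, where the difference turned to 0.21 without heavy polysome array 3, and in control siRNA cells they were apart by a narrow margin, with a difference of -0.62 without total RNA array 2.

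**Figure D1:**
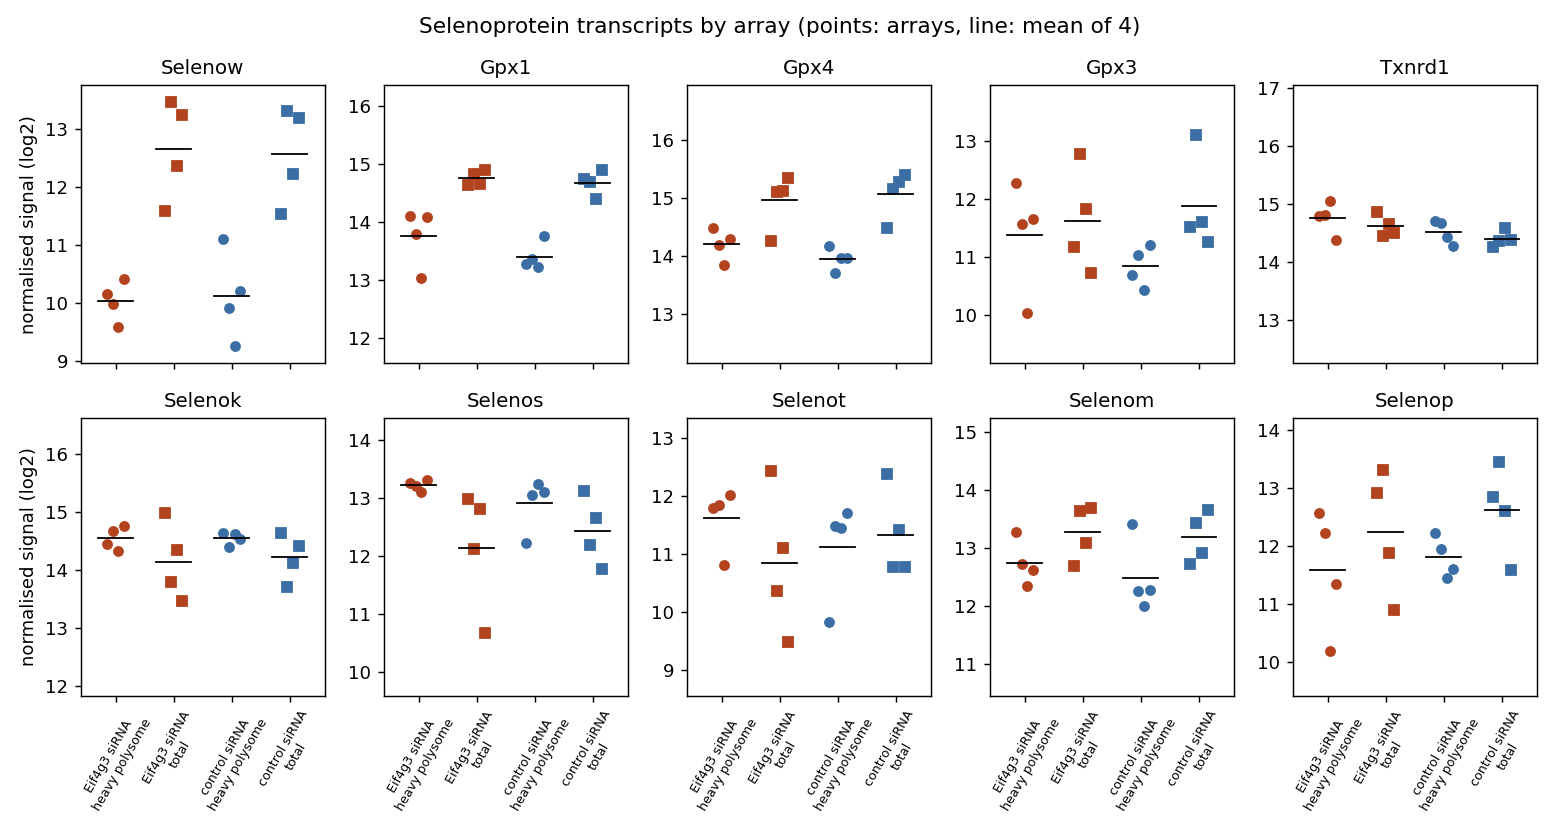
Normalised log2 signal of each of the 10 selenoprotein genes on each array, with Eif4g3 siRNA cells in red and control siRNA cells in blue, heavy polysome RNA as circles left of total RNA as squares, and the mean of 4 arrays as a line. Every panel spans the same height but has its own offset. The heavy polysome points of Selenow and Gpx1 lie below all total RNA points in both kinds of cells, and those of Txnrd1 and Selenok overlap with them.

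Txnrd1, the cytosolic reductase that recycles thioredoxin (probe at chr10:82327284-82327343, mm8), hardly differed between fractions: the difference was 0.14 in Eif4g3 siRNA cells and 0.13 in control siRNA cells, and the fractions overlapped in both. Its log2 signals ran from 14.38 to 15.05 in heavy polysome RNA and from 14.45 to 14.87 in total RNA of Eif4g3 siRNA cells. In control siRNA cells they ran from 14.28 to 14.71 in heavy polysome RNA and from 14.26 to 14.59 in total RNA. The sign for Txnrd1 depended on the scaling, since the processed signals scaled to their 75th percentile gave -0.33 in Eif4g3 siRNA cells and -0.35 in control siRNA cells.

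Of the selenoproteins of the endoplasmic reticulum membrane, Selenos was higher in heavy polysome RNA on average in both kinds of cells, while the sign for Selenok depended on the scaling and that for Selenot on the cells and the probe. Selenos, a membrane protein that links VCP to the removal of misfolded proteins (probe at chr7:65967823-65967882, mm8), had log2 signals of 13.27, 13.20, 13.10 and 13.30 in heavy polysome RNA of Eif4g3 siRNA cells, against 12.98, 12.12, 12.80 and 10.67 in total RNA. Selenos signals of control siRNA cells were 12.22, 13.05, 13.25 and 13.11 in heavy polysome RNA, against 13.12, 12.18, 12.65 and 11.78 in total RNA. The heavy polysome arrays lay above all total RNA arrays in Eif4g3 siRNA cells (difference 1.08), with total RNA array 4 far below the rest, and overlapped with them in control siRNA cells (difference 0.48). Without total RNA array 4 the Selenos difference was 0.58 in Eif4g3 siRNA cells and 0.26 in control siRNA cells. Selenok, a partner of the same degradation machinery and of a palmitoyltransferase (probe at chr14:28803647-28803706, mm8), differed by 0.41 in Eif4g3 siRNA cells and by 0.33 in control siRNA cells, with overlap in both. With 1 array left out, Selenok ran from 0.19 (without total RNA array 4) to 0.69 (without total RNA array 1) in Eif4g3 siRNA cells and from 0.16 (without total RNA array 2) to 0.47 in control siRNA cells. Under 75th percentile scaling these values for Selenok were -0.10 and -0.07. Selenot, a thioredoxin-like protein of the same membrane (probe at chr3:58680242-58680301, mm8), differed by 0.77 in Eif4g3 siRNA cells and by -0.21 in control siRNA cells, and the control value turned to 0.22 without heavy polysome array 1 and was also above 0 without total RNA array 1. Its value in Eif4g3 siRNA cells was 0.32 without total RNA array 4 and 1.30 without total RNA array 1. Another tested probe of Selenot (chr3:58673882-58673941) gave -0.22 in Eif4g3 siRNA cells and -0.42 in control siRNA cells, so the probes disagree on the sign in Eif4g3 siRNA cells.

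The remaining members were lower in heavy polysome RNA on average, with overlap between the fractions. Selenom, a protein of the endoplasmic reticulum lumen (probe at chr11:3417271-3417330, mm8), differed by -0.54 in Eif4g3 siRNA cells and by -0.69 in control siRNA cells. Selenop, the secreted carrier that delivers selenium between tissues (probe at chr15:3230418-3230477, mm8), differed by -0.66 in Eif4g3 siRNA cells and by -0.81 in control siRNA cells. The heavy polysome log2 signals of Selenop ran from 10.19 to 12.58 in Eif4g3 siRNA cells and from 11.45 to 12.23 in control siRNA cells, and its total RNA signals from 10.89 to 13.31 in Eif4g3 siRNA cells and from 11.60 to 13.45 in control siRNA cells. Without heavy polysome array 3 the Selenop difference was -0.20 in Eif4g3 siRNA cells, and without total RNA array 4 it was -1.12 there. In control siRNA cells it was -0.54 without total RNA array 2.

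Over the 10 genes, the median difference of heavy polysome from total RNA was -0.39 in Eif4g3 siRNA cells and -0.75 in control siRNA cells, beside 0.02 and -0.02 over all tested genes. In Eif4g3 siRNA cells 2 members (Selenow and Gpx1) had all heavy polysome values below all total RNA values, beside 5.27% of all tested genes, and 1 (Selenos) had all of them above, beside 2.77%. In control siRNA cells 4 members (Selenow, Gpx1, Gpx3 and Gpx4) lay below without overlap, beside 8.39% of all tested genes, and 0 lay above, beside 1.47%. The comparison is the one that led to the family, so nothing is read from these counts. Each slide held arrays of 1 fraction, so slide and fraction cannot be told apart in this comparison. Under 75th percentile scaling the median of all tested genes was -0.11 in Eif4g3 siRNA cells and -0.09 in control siRNA cells.

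**Figure D2:**
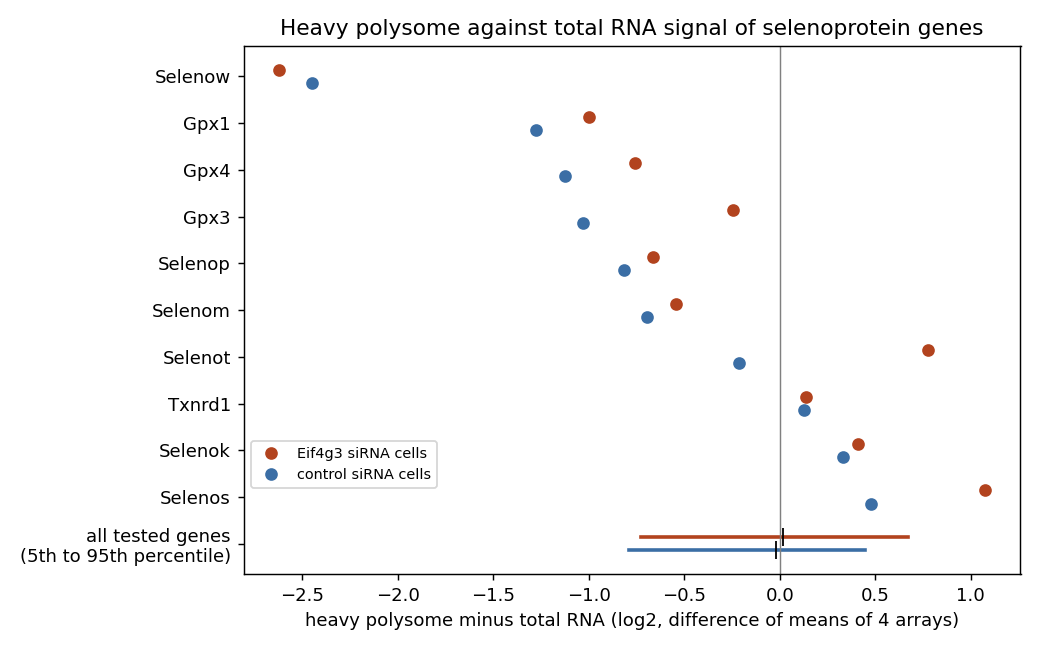
Heavy polysome minus total RNA (log2, difference of means of 4 arrays) for each gene, with Eif4g3 siRNA cells in red above control siRNA cells in blue. The lowest rows show the 5th to 95th percentile of all 14474 tested genes as lines and their median as ticks. Selenow, at -2.62 and -2.45, lies far left of those lines, while Txnrd1 and Selenok lie within them and change sign under 75th percentile scaling.

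With the brightest probe of each gene, none of the 10 selenoprotein transcripts passed the threshold for Eif4g3 siRNA. A dimmer probe of Selenot passed in a fit over all tested probes, as given below. In heavy polysome RNA 0 of 10 members passed an adjusted p of 0.05, where 8.91% of all tested genes did (706 higher, 4.88%, and 584 lower, 4.03%). In total RNA 0 of 10 passed, where 4.37% did (242 higher, 1.67%, and 391 lower, 2.7%). For Selenow the log2 ratios were -0.94, 0.07, 0.33 and 0.21 in heavy polysome RNA (mean -0.08 ± 0.58, SD, n = 4, 95% interval -0.48 to 0.32) and 0.05, 0.16, 0.13 and 0.05 in total RNA (0.09 ± 0.05, SD, n = 4, interval -0.31 to 0.50). Selenow was thus higher on 7 of 8 arrays by small amounts, and without heavy polysome array 1 its heavy polysome mean was 0.21. The heavy polysome ratio has the control heavy polysome signal as its denominator, which also enters the values by which Selenow was noticed.

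The peroxidases had ratios above 0 in heavy polysome RNA that fell short of the threshold. Gpx1 had 0.84, 0.43, -0.19 and 0.32 in heavy polysome RNA (0.35 ± 0.42, SD, n = 4, limma adjusted p = 0.168) and -0.11, 0.14, 0.26 and 0.00 in total RNA (0.07 ± 0.16, adjusted p = 0.831). Gpx4 had 0.31, 0.48, -0.12 and 0.33 in heavy polysome RNA (0.25 ± 0.26, SD, n = 4, limma adjusted p = 0.176) and -0.23, -0.04, -0.14 and -0.05 in total RNA (-0.12 ± 0.09, adjusted p = 0.571). Gpx3 had 1.57, 0.54, -0.39 and 0.45 in heavy polysome RNA (0.54 ± 0.81, SD, n = 4, limma adjusted p = 0.215) and -0.34, -0.33, 0.21 and -0.53 in total RNA (-0.24 ± 0.32, adjusted p = 0.624). On heavy polysome array 3 all 3 peroxidases were below 0, and on the other heavy polysome arrays all 3 were above it. Without heavy polysome array 3, Gpx1 (0.53, adjusted p = 0.0392) and Gpx4 (0.37, adjusted p = 0.0395) passed in limma, and Gpx4 also passed with Agilent's processed signals (0.37, adjusted p = 0.0418). Selenom had -0.14, 0.47, 0.34 and 0.33 in heavy polysome RNA (0.25 ± 0.27, SD, n = 4, limma adjusted p = 0.189) and passed without heavy polysome array 1 (0.38, adjusted p = 0.0408).

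Txnrd1 was higher in Eif4g3 siRNA cells on 8 of 8 arrays, and on 6 of them by little. Its log2 ratios were 0.08, 0.13, 0.62 and 0.10 in heavy polysome RNA (0.23 ± 0.26, SD, n = 4, limma adjusted p = 0.287) and 0.61, 0.09, 0.07 and 0.12 in total RNA (0.22 ± 0.26, adjusted p = 0.339). A single array in each fraction stood well above the other 3.

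With the brightest probe of each gene, the membrane selenoproteins of the endoplasmic reticulum varied between arrays more than their means. Selenos had 1.04, 0.14, -0.15 and 0.19 in heavy polysome RNA (0.31 ± 0.51, SD, n = 4, limma adjusted p = 0.432) and -0.14, -0.06, 0.15 and -1.11 in total RNA (-0.29 ± 0.56, adjusted p = 0.493). Selenok had means of 0.00 ± 0.29 in heavy polysome RNA and -0.08 ± 0.58 in total RNA (SD, n = 4), with total RNA array 4 at -0.94 and the other total RNA arrays from 0.08 to 0.34. Total RNA array 4 was the lowest of its fraction for Selenos, Selenok and the brighter tested probe of Selenot. Selenot is uncertain because its probes disagree. The brighter one had 1.97, 0.36, -0.64 and 0.31 in heavy polysome RNA (0.50 ± 1.08, SD, n = 4) and 0.05, -0.41, -0.31 and -1.29 in total RNA (-0.49 ± 0.57). The other had 0.60, 0.68, 0.60 and 0.71 in heavy polysome RNA (0.65 ± 0.06, SD, n = 4) and 0.69, 0.62, 0.08 and 0.41 in total RNA (0.45 ± 0.27). In a limma fit over all 21398 tested probes the dimmer probe passed in heavy polysome RNA with an adjusted p of 0.00878 and in total RNA with 0.0481, while the brighter one did not (0.419 and 0.449). With the mean of both probes Selenot was at 0.57 in heavy polysome RNA (adjusted p = 0.0882) and at -0.020 in total RNA (adjusted p = 0.966).

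**Figure D3:**
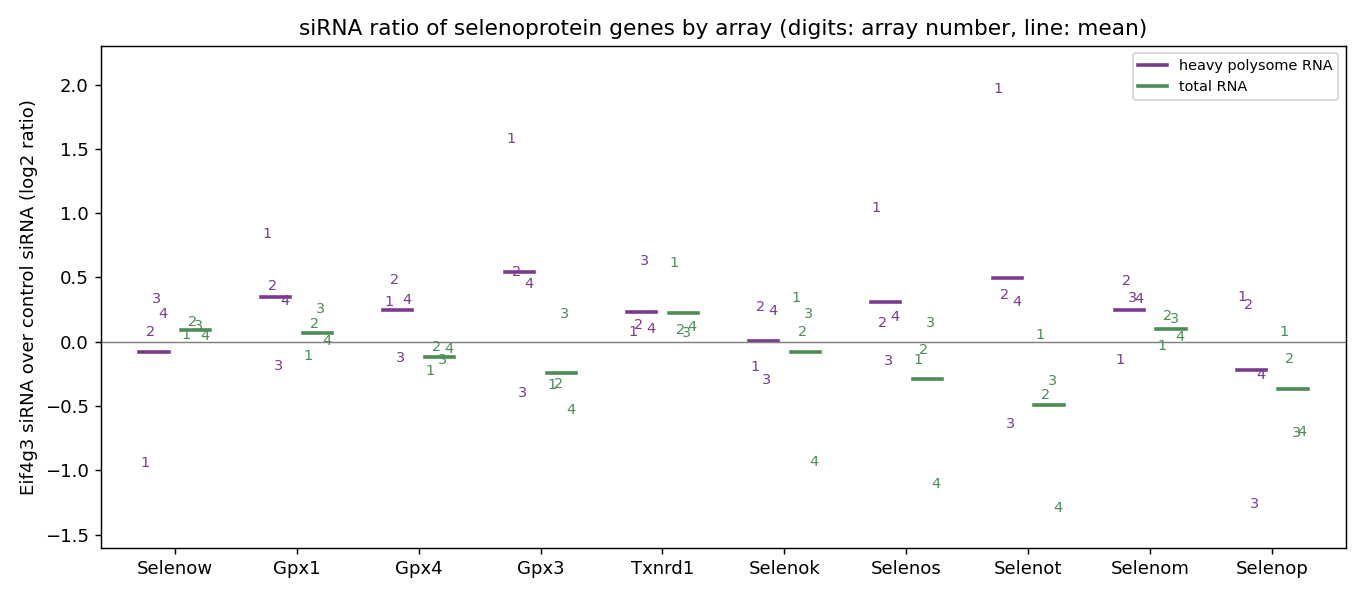
Log2 ratio of Eif4g3 siRNA over control siRNA for each gene, with each digit standing for the array of that number and each line for the mean of 4, heavy polysome RNA in purple left of total RNA in green. Heavy polysome array 1 is the highest for Gpx1, Gpx3, Selenos and Selenot and the lowest for Selenow. No gene passed the adjusted threshold with the brightest probe, which is the one drawn.

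Heavy polysome array 1, with the fewest probes well above background in its control channel (37.6%), carried much of some members' heavy polysome means. Without it the mean was 0.20 for Gpx3, 0.19 for Gpx1, 0.06 for Selenos and 0.01 for the brighter probe of Selenot. Selenom (0.38), Txnrd1 (0.28) and Selenow (0.21) were higher without this array than with all arrays, and Selenop (-0.41) was lower. The part of this channel in those values was not tested further. For Selenop, ratios were 0.35, 0.29, -1.26 and -0.26 in heavy polysome RNA (-0.22 ± 0.75, SD, n = 4, limma adjusted p = 0.622) and 0.07, -0.14, -0.71 and -0.70 in total RNA (-0.37 ± 0.40, adjusted p = 0.419). The median ratio of the 5 tested macrophage markers was -0.11, -0.09, -0.71 and -0.45 on the same heavy polysome arrays and -0.29, -0.22, -0.46 and -0.77 on the total RNA arrays. Their summed signal ran from 967 to 2655 in Eif4g3 siRNA cells and from 1770 to 3823 in control siRNA cells in heavy polysome RNA, and from 1102 to 2555 in Eif4g3 siRNA cells and from 1880 to 2839 in control siRNA cells in total RNA. In each fraction, the 2 arrays lowest for Selenop were the 2 lowest for these markers. In heavy polysome RNA this order is not particular to Selenop. Arrays 3 and 4 were the 2 lowest there for Gpx1, Gpx3 and the brighter probe of Selenot too. Trem2, a myeloid receptor, fell in heavy polysome RNA (-1.39, limma adjusted p = 0.0165) and did not pass in total RNA (-0.80, adjusted p = 0.131). Csf1r, the receptor of macrophage colony-stimulating factor, fell in total RNA (-0.57, adjusted p = 0.0447) and did not pass in heavy polysome RNA (-0.35, adjusted p = 0.129). Cd68, Lyz2 and Cd14 passed in neither fraction, with Lyz2 at 0.05 in heavy polysome RNA and -0.04 in total RNA. Of the 10 stromal markers, Pdgfra (-0.65), Pdgfrb (-0.47), Col1a1 (-0.67) and Col1a2 (-0.42) fell past the threshold in heavy polysome RNA. Cxcl12 (0.78) rose past it, and 8.91% of all tested genes passed there. Vim (0.55), Pdpn (0.25) and Thy1 (0.10) were above 0 there without passing. Vcam1 (-0.51) and Col3a1 (-0.49) were below 0 without passing. In total RNA only Col1a2 passed (-0.46, limma adjusted p = 0.0493), beside 4.37% of all tested genes. The part of the macrophage markers in the Selenop values was not tested.

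The siRNA effect in heavy polysome RNA was also set against that in total RNA, which asks whether the polysome share of a transcript changed beyond its abundance. No member passed, and 0% of the 14474 tested genes did in limma, with 755 at an unadjusted p under 0.05 (5.22%). The difference was 0.79 for Gpx3 (95% interval -0.01 to 1.59, adjusted p = 0.847), 0.36 for Gpx4 (0.03 to 0.69, adjusted p = 0.847), 0.28 for Gpx1 (-0.18 to 0.74, adjusted p = 0.856) and 0.60 for Selenos (-0.11 to 1.31, adjusted p = 0.847). For Selenow it was -0.17, given as a value with no test because it shares the control signals with the comparison by which Selenow was noticed. The difference was above 0 for 9 of 10 members and for 9023 of the 14474 tested genes, and its median was 0.22 over members and 0.06 over all tested genes. For Txnrd1, one of the 9, it was 0.0096 and turned to -0.12 without heavy polysome array 3. These intervals leave room for changes in either direction for most members.

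Among the other selenoproteins, Selenof rose most with Eif4g3 siRNA. Selenof encodes an endoplasmic reticulum protein that binds the glycoprotein folding sensor UGGT. Its log2 ratios were 1.51, 1.04, 1.28 and 1.37 in heavy polysome RNA (1.30 ± 0.20, SD, n = 4, limma adjusted p = 7.42e-04) and 0.90, 0.67, 0.98 and 1.10 in total RNA (0.91 ± 0.18, adjusted p = 0.00572). It was higher on 8 of 8 arrays, and the difference between the fractions was 0.39 (95% interval 0.06 to 0.72, adjusted p = 0.847). The call held in both fractions without any 1 array (adjusted p from 0.00134 to 0.00996 in heavy polysome RNA and from 0.00402 to 0.0477 in total RNA). Selenoh, a nuclear DNA-binding protein, rose in heavy polysome RNA (0.55 ± 0.35, SD, n = 4, limma adjusted p = 0.0430), and Selenoo, a mitochondrial pseudokinase, fell there (-0.47 ± 0.22, adjusted p = 0.0329). The Selenoh call held only with heavy polysome array 1 or total RNA array 4 left out (adjusted p otherwise from 0.0573 to 0.180), and the Selenoo call only with heavy polysome array 1 or either of total RNA arrays 1 and 4 left out (otherwise from 0.0527 to 0.111). Of the 14 other selenoproteins 10 were tested. In heavy polysome RNA 2 rose and 1 fell, beside 4.88% and 4.03% of all tested genes. In total RNA 1 rose and 0 fell, beside 1.67% and 2.7%.

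By fraction, Selenoh resembled Selenow: its heavy polysome minus total RNA value was -1.36 in Eif4g3 siRNA cells and -1.62 in control siRNA cells, without overlap in either. Its control signals were 9.98, 10.28, 10.04 and 10.09 in heavy polysome RNA, against 11.23, 12.39, 11.19 and 12.03 in total RNA. The other extremes of the list in control siRNA cells were Txnrd2, the mitochondrial thioredoxin reductase, at -0.56, and Selenoo at 0.29 and Txnrd3 at 0.36. The median of the 10 was -0.13 in Eif4g3 siRNA cells and -0.27 in control siRNA cells. In control siRNA cells 2 of the 10 lay below without overlap, Selenoh and Selenof (-0.48), beside 8.39% of all tested genes. In Eif4g3 siRNA cells 1 did, beside 5.27%, and Selenof was at -0.09 with overlap. Nothing is read from these counts.

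The genes that insert selenocysteine or supply selenium did not pass the threshold, with a single exception. Trnau1ap, whose product associates with the selenocysteine tRNA, rose in heavy polysome RNA with ratios of 1.22, 1.09, 1.35 and 1.24 (1.23 ± 0.10, SD, n = 4, limma adjusted p = 8.69e-04) and in total RNA with 0.77, 1.22, 0.91 and 1.27 (1.04 ± 0.24, adjusted p = 0.00354). It was higher on 8 of 8 arrays, and the call held in both fractions without any 1 array (adjusted p from 0.00134 to 0.0114 in heavy polysome RNA and from 0.00313 to 0.0350 in total RNA). The other 12 of 13 tested genes did not pass, among them Secisbp2, the SECIS-binding protein (0.20 ± 0.22 in heavy polysome RNA), and Eefsec, the selenocysteine elongation factor (-0.05 ± 0.40). Of all tested genes, 8.91% passed in heavy polysome RNA and 4.37% in total RNA. By fraction, Pstk, the kinase that prepares the selenocysteine tRNA, was low in heavy polysome RNA without overlap (-0.83 in Eif4g3 siRNA cells and -0.99 in control siRNA cells). That is 1 of 13 tested genes below, beside 5.27% of all tested genes in Eif4g3 siRNA cells and 8.39% in control siRNA cells. In each kind of cells 1 gene lay above without overlap (Scly in control siRNA cells), beside 2.77% and 1.47%. Nothing is read from these counts. Rpl30, a ribosomal protein that binds SECIS elements, was at -0.56 and -0.66 with overlap. Ncl, nucleolin, at 1.15 and 0.54, and Scly, selenocysteine lyase, at 0.55 and 0.58, were the highest of the list in control siRNA cells.

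**Figure D4:**
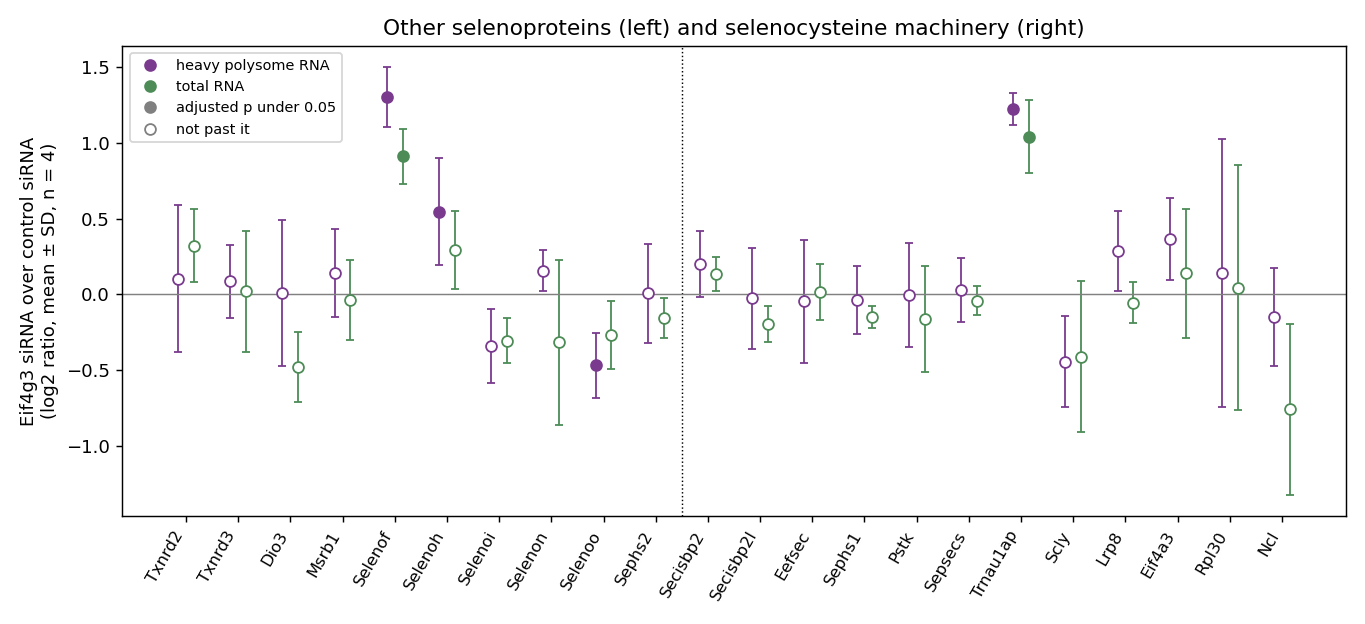
Log2 ratio of Eif4g3 siRNA over control siRNA (mean ± SD, n = 4) for the other selenoproteins left of the dotted line and the selenocysteine machinery right of it, heavy polysome RNA in purple left of total RNA in green. Filled points passed an adjusted p of 0.05. Selenof and Trnau1ap stand near or above 1 in both fractions, and these calls do not hold when median centring replaces loess.

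The Selenoh call was also lost with no filter on dim probes (adjusted p = 0.0679) and with the heavy polysome arrays fitted alone (0.110), where the Selenoo call was lost too (0.0871). All of these calls rest on the loess correction within arrays. With median centring in its place, 0 genes passed in either fraction in limma, Eif4g3 included, with 370 at an unadjusted p under 0.05 in heavy polysome RNA and 6361 in total RNA, and the median ratio of all tested genes moved to -0.78 in total RNA. The same median in heavy polysome RNA was -0.00058. Relative to the median of its own fraction, Selenof was at 1.34 in heavy polysome RNA and 0.78 in total RNA, and Trnau1ap at 1.25 and 0.89.

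Of the 7 relatives that use cysteine in place of selenocysteine 5 were tested, and Gpx8, a peroxidase of the endoplasmic reticulum, rose in heavy polysome RNA (0.59 ± 0.25, SD, n = 4, limma adjusted p = 0.0406). Of all tested genes, 4.88% rose there. Their control values of heavy polysome minus total RNA ran from -0.41 for Gpx7 and -0.32 for Msrb3 to 0.01 for Gpx8 and 0.02 for Msra. In Eif4g3 siRNA cells Gpx7 was at -0.35, Msrb3 at 0.34, Gpx8 at 0.33 and Msra at 0.24. Of 15 thioredoxin and glutathione genes, all tested, Glrx, glutaredoxin (-0.75 ± 0.12, adjusted p = 0.0442), and Prdx5, a peroxiredoxin (-0.57 ± 0.22, adjusted p = 0.0307), fell in total RNA and 0 passed in heavy polysome RNA. Beside them, 2.7% of all tested genes fell in total RNA and 8.91% passed in heavy polysome RNA. By fraction in control siRNA cells that list ran from -0.56 for Txn2, mitochondrial thioredoxin, and -0.23 for Txn1, its cytosolic counterpart, to 0.70 for Prdx5 and 0.83 for Prdx1, with a median of 0.49. The Gpx8 call held only without total RNA array 1 or 4 (adjusted p otherwise from 0.0666 to 0.111). The Glrx call held only without heavy polysome array 1 or 3 (otherwise from 0.0725 to 0.152), and the Prdx5 call likewise (otherwise from 0.0527 to 0.136). With no filter on dim probes the Gpx8 (adjusted p = 0.0674) and Glrx (0.0780) calls were lost.

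Among 7 tested partners of the endoplasmic reticulum selenoproteins, Vcp, the ATPase that extracts misfolded proteins, fell in heavy polysome RNA (-0.58 ± 0.08, SD, n = 4, limma adjusted p = 0.00466) and was lower on all arrays of both fractions. Sel1l, an adaptor of the same pathway, rose there (0.55 ± 0.31, adjusted p = 0.0390), but only the fits without total RNA array 1 or 4 kept that call (otherwise from 0.0605 to 0.102), and the mean of its tested probes was 0.23 (adjusted p = 0.0880). In control siRNA cells their heavy polysome minus total RNA values ran from -0.61 for Zdhhc6, the palmitoyltransferase partner of Selenok, and -0.06 for Derl1 to 0.16 for Uggt1 and 0.26 for Vcp. Of 8 nonsense-mediated decay genes, all tested, Upf1, the central helicase, fell in heavy polysome RNA with ratios of -1.16, -0.61, -0.79 and -0.62 (-0.80 ± 0.25, SD, n = 4, limma adjusted p = 0.00685). In total RNA its ratios of -0.51, -0.58, -0.27 and -0.00 did not pass (-0.34 ± 0.26, adjusted p = 0.148). The Vcp and Upf1 calls held without any 1 array (highest adjusted p 0.0291 and 0.0326). Of all tested genes, 4.88% rose and 4.03% fell in heavy polysome RNA. By fraction in control siRNA cells, Upf3b and Upf3a, which link the exon junction complex to decay, were at 0.14 and Upf2, the adaptor between them and Upf1, was at 0.38.

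Genes whose pattern was most like that of Selenow were sought over its 16 channel values, among 10589 genes well above background in both channels on all arrays. The closest were Ercc1, a subunit of a DNA repair nuclease (Pearson r = 0.967), the small nucleolar RNA host genes Snhg16 (0.965) and Zfas1 (0.962), the long noncoding RNA Dubr (0.961) and the mitochondrial ribosomal protein gene Mrpl42 (0.961). The 16 values share 8 arrays and fall into the 2 fractions, so these are descriptions of a common split. All 5 were low in heavy polysome RNA, with Zfas1 at -2.89 in Eif4g3 siRNA cells and -2.52 in control siRNA cells, and Mrpl42 at -1.42 and -1.41.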

How the data were processed

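Per the file headers, the deposited scanner tables hold spot and local background intensity of both channels from Agilent Feature Extraction, version 10.7.3.1 on 7 arrays and 10.5.1.1 on total RNA array 2. The submitters' processing notes name Feature Extraction without a version. The deposited processed signals were also used; per the file headers their ratio is a log10 value, Cy5 over Cy3. Log2 ratios make up the deposited series matrix, which has no centring (array medians -0.21 to 0.31) and was within 0.01 of the processed signals' log2 ratio for 99.8% or more of the probes of each array, so it served only as a check. Probe positions are on mm8, and an annotation of that build was not used here.

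Mean signals were corrected with normexp (offset 50) and log2 ratios normalised within arrays by loess (span 0.3); single-channel levels were then normalised between arrays (Aquantile). Spots of a probe were averaged. Marked spots were left out (131 to 241 per array), and no spot was saturated. Gene names were updated through RefSeq records of GRCm38.p6, which also gave the start sequences; 33026 of 41174 probes (80.2%) had a current symbol. A gene was tested if its brightest probe exceeded background (Feature Extraction's well-above mark, in either channel) on 3 or more of the 4 arrays of a fraction. limma 3.58.1 in R 4.3.3 fitted 1 coefficient per fraction over 8 arrays, two-sided, with Benjamini-Hochberg adjustment over 14474 genes at 0.05; intervals are 95% intervals and cover the spread between arrays. The number of arrays limits the precision. On simulated ratios of 14474 genes the fit was tested before use. Python 3.11.15 and matplotlib 3.10.9 drew the plots.

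The members and lists were chosen with earlier results of these data known. Named were all members with each tested probe, the siRNA target, genes of the lists past the threshold (at most 6 per list), the 2 highest and 2 lowest of each list by heavy polysome minus total RNA in control cells, and the 5 genes most like Selenow. A gene that this rule names is not reported here. Markers named beside Selenop were chosen after their values were seen, as were Secisbp2 and Eefsec. A comparison with protein length was not run. Alternatives were Agilent's processed signals, median centring, other filters, the mean of probes, slide and replicate blocks, single fractions, other scalings and arrays left out.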

Additional observations from a re-analysis of the deposited data

Results flagged for a closer look

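In 3 of 60 sets of 4 array values for members, 1 array stood apart from the other 3 by Dixon's ratio; chance flags about 1 in 20 such sets. Txnrd1 had a log2 ratio of 0.62 on heavy polysome array 3, where the other 3 lay between 0.08 and 0.13. Txnrd1 had 0.61 on total RNA array 1, where the other 3 lay between 0.07 and 0.12. The control log2 signal of Selenot was 9.83 on heavy polysome array 1, where the other 3 lay between 11.45 and 11.72; that channel had the lowest share of probes well above background (37.6%).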

How the results depend on the processing

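In total RNA the number of genes past the threshold was 1451 with Agilent's processed signals, 0 with median centring, 1474 with slide as a random block, 46 to 1324 with 1 array left out, and 3167 without heavy polysome arrays 1 and 3 and total RNA array 4 (chosen after seeing the data), against 633. In heavy polysome RNA it was 2050, 0 and 2591 with the same settings, 382 with the heavy polysome arrays alone, 337 to 1537 with 1 array left out and 2376 without the 3 arrays, against 1290. With 1 array left out, the lowest counts came without total RNA array 3 and without heavy polysome array 4. In the slide block the estimated correlation within slides was below 0 (-0.27), so its larger counts are not read as stronger results. Members passing in heavy polysome RNA numbered 1 with processed signals, 0 to 2 with 1 array left out and 2 without the 3 arrays (Gpx4 and Selenom). For the difference between fractions, 0 genes passed in any setting. Arrays with the same replicate number in their titles were not the closest to each other (correlations -0.02, 0.17, -0.11 and -0.30). Heavy polysome arrays 2 and 4 were both closest to total RNA array 1 (0.47 and 0.31). These correlations cannot decide whether same-numbered arrays came from the same cells. With the replicate block 0 genes and 0 members passed in limma, with 552 genes at an unadjusted p under 0.05.

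Some values, many of them near 0, changed sign in some settings. With processed signals, Gpx1 (-0.0015) and Selenok (0.10) did so in total RNA, and Selenok (-0.0087) and Trnau1ap (-0.029) in the difference. With median centring, which moved the median of all genes in total RNA to -0.78, total RNA ratios turned for Selenow (-0.83), Gpx1 (-0.80), Txnrd1 (-0.65), Selenom (-0.81), Gpx8 (-0.63), Sel1l (-0.49) and Selenoh (-0.64), and differences for Selenow (0.77), Vcp (0.72), Upf1 (0.49), Selenoo (0.73) and Eif4g3 (0.58). Relative to that median, Txnrd1 (0.13), Gpx8 (0.15), Sel1l (0.29) and Selenoh (0.14) kept their sign. Selenow (-0.05), Gpx1 (-0.02) and Selenom (-0.03) turned by little. The median difference of all genes moved to 0.78. Relative to it, the differences of Selenow (-0.02), Vcp (-0.07), Upf1 (-0.29), Selenoo (-0.06) and Eif4g3 (-0.21) kept their sign. The slide block turned the difference for Txnrd1 (-0.013). Without the 3 arrays, Selenok turned in total RNA (0.21), Selenow (0.14) and Selenop (0.015) in heavy polysome RNA, and Selenow (0.035) and Txnrd1 (-0.14) in the difference. With 1 array left out, Selenok ran from -0.084 to 0.10 in heavy polysome RNA and between -0.21 and 0.21 in total RNA. In heavy polysome RNA Selenow ran from -0.22 to 0.21 and Selenop from -0.41 to 0.13. The difference ran from -0.31 to 0.11 for Selenow, -0.041 to 0.50 for Selenop, -0.12 to 0.14 for Txnrd1, -0.21 to 0.22 for Selenok and -0.014 to 0.42 for Glrx. The cause of the shift and of the other sign changes was not tested. Of 2038 recomputed values, 1880 kept their direction and side of the threshold or moved by less than the spread.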
